A study of Homo sapiens with 18 samples.

Results

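The S100 genes encode small calcium-binding proteins, and 10 of them were examined here in pancreatic ductal adenocarcinoma (PDAC) cells: S100A2, S100A3, S100A4, S100A6, S100A8, S100A9, S100A10, S100A14, S100A16 and S100P. They were chosen by gene symbol, with earlier results of these data known, and are 10 of the 40266 symbols in the expression table. mRNA was sequenced in 18 libraries that form 6 groups of 3. The mesenchymal-like line Panc1 came from a primary tumor and the epithelial line Panc89 from a lymph node metastasis, and each was measured as parental cells, as Holoclone cells and as Paraclone cells. Holoclone and Paraclone cells were each grown from 1 single cell, picked by colony shape, with Holoclones taken as the colonies rich in cancer stem cells and Paraclones as the more differentiated ones. No group was treated, no gene was targeted, and all groups shared 1 medium. The replicates were RNA from different passages of the same cells, so a p-value measures the spread between passages of 1 clone, not between clones.

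S100 proteins fold around a pair of EF-hand calcium-binding motifs and mostly work as dimers. Calcium opens a surface on which they hold targets such as annexins, myosin and ezrin, and several are also secreted and act on the receptors RAGE (gene AGER) and TLR4. In the pancreas, ductal tumors are known for raised S100P, S100A4 and S100A6, while S100A8 and S100A9 are best known from neutrophils and monocytes.

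Levels are given as TPM, read-based transcript abundances corrected for length and library total, and differences are log2 fold changes of TPM + 1 with their standard errors from limma's moderated test, which understate the change of genes near 1 TPM. A gene was called changed at a Benjamini-Hochberg adjusted p under 0.05 over 16093 genes that reached 1 TPM in at least 3 libraries. All 10 S100 genes passed that filter, but S100A8 did so through 4 libraries and S100A9 and S100A14 through 9, all of Panc89, so these 3 had to differ between the lines and are not tested there. The 4 libraries of S100A8 are the 3 of parental Panc89 and 1 of its Paraclone, so S100A8 is not tested against parental Panc89 either. S100A3 reached 1 TPM in 14 libraries, 9 of them Panc1, and the other 6 genes in all 18. TPM keep no library totals, so the sequencing depth is unknown and a value of 0 has no stated limit. In these bulk samples, fewer expressing cells and less RNA per cell cannot be told apart. Replicate libraries correlated at 0.954 to 0.992 over the tested genes.

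The labelled cell types were checked against their markers. All 6 epithelial markers averaged at least 1 TPM in every Panc89 group, and 5 or 6 of 6 did in the Panc1 groups. CDH1 was the marker under 1 TPM, in Panc1 Holoclone cells. Their sums overlapped between the lines, at 2603 to 5026 TPM in the Panc1 libraries and 4016 to 6862 TPM in the Panc89 libraries. Taken singly, 4 of the 6 were called higher in Panc89 and 1 lower between the parental lines (27.5% and 38.5% of all genes). Between the Holoclones 4 were higher and 2 lower (29.3% and 36.4%), and between the Paraclones 3 were higher and 0 lower (30.2% and 30.4%). The 6 mesenchymal markers summed to 2053 to 5181 TPM in the Panc1 libraries and to 6.01 to 33.4 TPM in the Panc89 libraries. VIM made up most of the Panc1 sum, with group means of 2465 to 4318 TPM, against at most 0.361 TPM in Panc89. The markers did not all follow this order, and FN1 averaged 3.60 TPM in parental Panc89 and 0.213 TPM in parental Panc1. Between the Paraclones, VIM, SPARC and ZEB1 were lower in Panc89, while FN1, ZEB2 and CDH2 were higher.

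On the GRCh38 assembly with the GENCODE annotation, 9 of the 10 genes lie on chromosome 1 in the epidermal differentiation region and S100P lies on chromosome 4. S100A10 (chr1:151982915-151993859, minus strand) stands apart from the rest of the cluster. S100A9 (chr1:153357854-153361023) is on the plus strand, and S100A8 (chr1:153390032-153391073) follows on the minus strand. The others are all on the minus strand: S100A6 (chr1:153534599-153536244), S100A4 (chr1:153543613-153550136), S100A3 (chr1:153547329-153549258), S100A2 (chr1:153561108-153567890), S100A16 (chr1:153606886-153613145) and S100A14 (chr1:153614255-153616986). S100P occupies chr4:6693878-6697170 on the plus strand. S100A3 lies inside the GENCODE span of S100A4 on the same strand. Whether exons of these genes overlap was not examined, so a division of reads between them is unknown and the low S100A3 values are uncertain.

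The promoters of 5 genes are shown because the results below turn on these genes: S100A8 and S100A9, which were at or near 0 in Panc1, S100P, which was the second most abundant of the genes in Panc89, and S100A16 and S100A4, which differed most between the Panc1 clones. They are the RefSeq sequences (GRCh38.p14) just upstream of the start, 5′ to 3′, without bases that GENCODE places in an exon. For S100A4 the RefSeq start lies 4330 bases from the GENCODE gene start, so its window is inside the S100A4 span given above. S100A3 lies upstream of that RefSeq start. Capitals mark matches to the TATA box letters TATAAA or to CACCTG, the E-box bound by the ZEB and SNAI repressors, each on either strand.
S100A8 (chr1:153391074-153391323, - strand): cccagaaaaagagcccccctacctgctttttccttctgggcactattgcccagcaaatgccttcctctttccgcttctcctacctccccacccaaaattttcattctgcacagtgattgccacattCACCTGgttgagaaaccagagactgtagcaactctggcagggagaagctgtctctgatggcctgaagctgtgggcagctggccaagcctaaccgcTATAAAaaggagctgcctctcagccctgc
S100A9 (chr1:153357604-153357853, + strand): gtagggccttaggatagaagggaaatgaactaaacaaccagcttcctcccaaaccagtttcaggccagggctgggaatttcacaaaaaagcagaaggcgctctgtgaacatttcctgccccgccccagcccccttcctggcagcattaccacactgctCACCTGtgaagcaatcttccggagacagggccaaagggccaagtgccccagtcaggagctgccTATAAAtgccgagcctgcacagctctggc
S100P (chr4:6693628-6693877, + strand): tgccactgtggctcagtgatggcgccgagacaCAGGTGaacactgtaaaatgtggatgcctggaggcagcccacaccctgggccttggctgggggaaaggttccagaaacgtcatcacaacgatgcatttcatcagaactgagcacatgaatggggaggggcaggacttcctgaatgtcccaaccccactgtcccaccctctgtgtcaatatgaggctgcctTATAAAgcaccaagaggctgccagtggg
S100A16 (chr1:153613146-153613387, - strand): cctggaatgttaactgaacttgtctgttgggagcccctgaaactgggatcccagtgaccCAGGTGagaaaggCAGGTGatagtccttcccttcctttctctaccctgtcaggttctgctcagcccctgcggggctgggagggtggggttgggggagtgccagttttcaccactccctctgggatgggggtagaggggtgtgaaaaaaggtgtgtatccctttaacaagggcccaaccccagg
S100A4 (chr1:153545807-153546056, - strand): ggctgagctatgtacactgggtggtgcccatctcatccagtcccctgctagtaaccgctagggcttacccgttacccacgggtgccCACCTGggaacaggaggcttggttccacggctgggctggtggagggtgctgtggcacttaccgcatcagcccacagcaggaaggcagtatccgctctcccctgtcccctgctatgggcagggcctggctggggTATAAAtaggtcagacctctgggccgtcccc

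TATAAA occurred within 250 bases upstream of the start in 4 of the 10 genes, S100A4, S100A8, S100A9 and S100P, with its first base at -31, -29, -29 and -28 from the start. Of all 35116 RefSeq promoter windows of that length, 10.7% held it. CACCTG or its reverse complement occurred in 6 of the 10 genes, the 5 shown and S100A14, against 17.5% of all windows, and S100A16 held it at -191 and at -178. TGANTCA, the AP-1 letters, matched in S100A2 and S100A3 (6.6% of all windows), and the C/EBP letters TTNNGCAA matched in 0 of 10 (9.1%). These are letter matches in 1 window per gene and were not measured as binding.

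**Figure D1:**
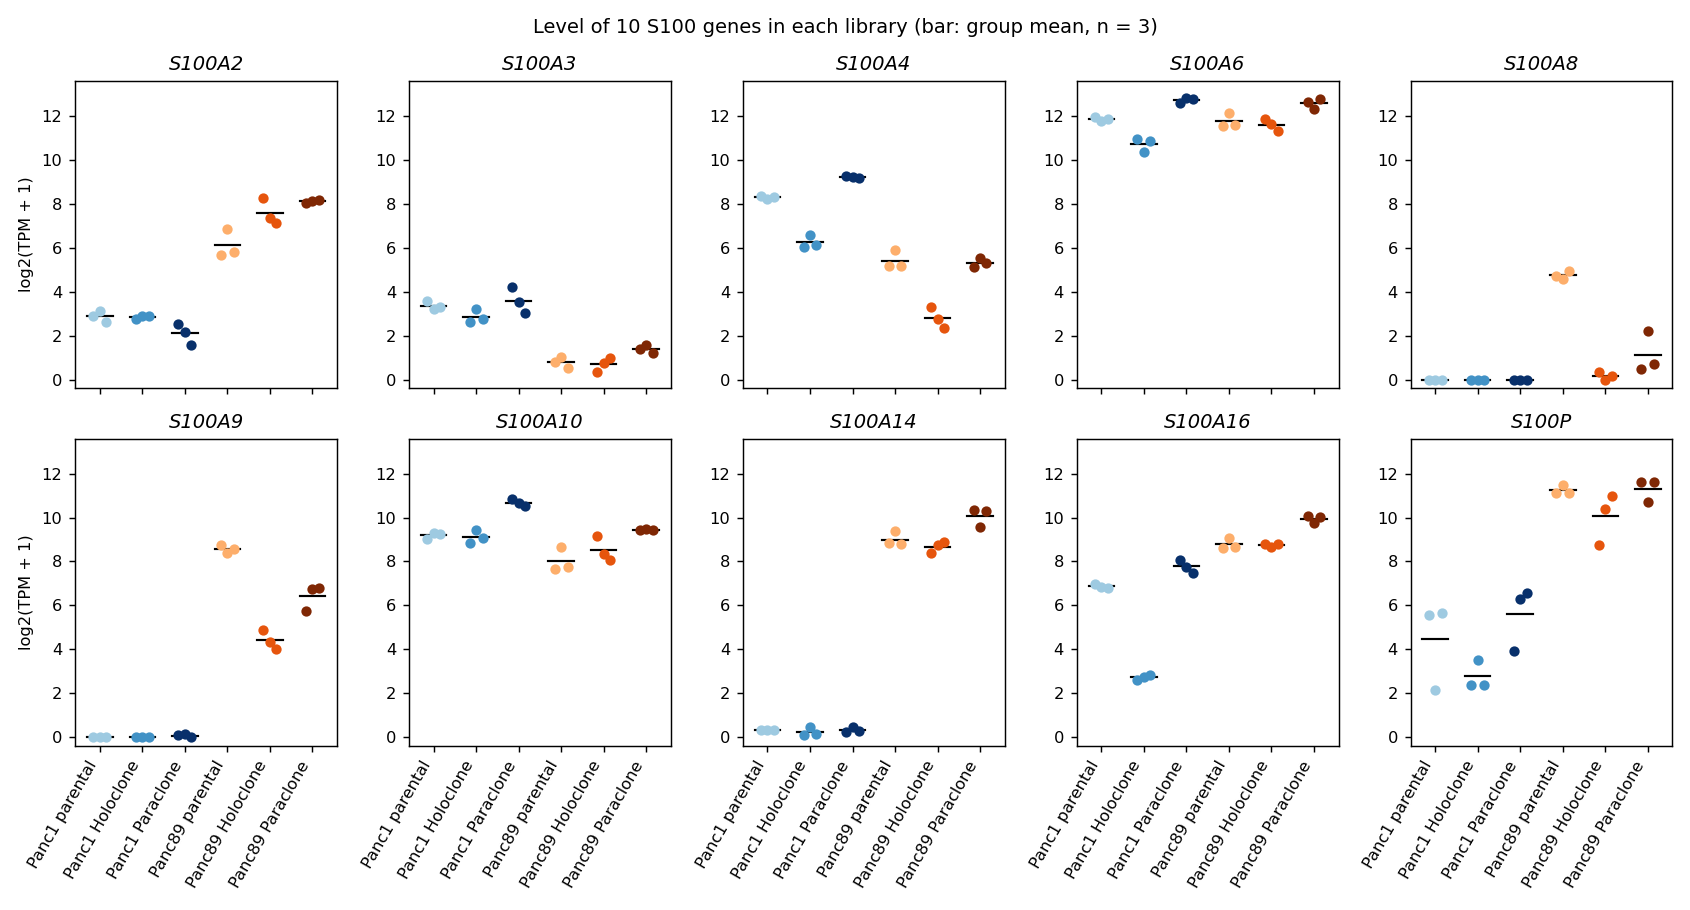
Level of each S100 gene as log2(TPM + 1), 1 panel per gene, with 1 point per library and a bar at the group mean (n = 3), for Panc1 groups in blue and Panc89 groups in orange. S100A6 is high in all libraries, S100A8, S100A9 and S100A14 stay near 0 in Panc1, and S100A16 is low in Panc1 Holoclone cells alone among the groups.

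As a family, the 10 genes took more of the transcriptome in Paraclone than in Holoclone cells of both lines. Their summed level was 2380 ± 211 TPM (SD, n = 3) in Panc1 Holoclone, 4816 ± 290 in parental Panc1 and 9331 ± 434 in Panc1 Paraclone cells. In Panc89 it was 5886 ± 77 TPM in Holoclone, 7717 ± 1541 in parental and 12146 ± 2205 in Paraclone cells. The 3 Panc1 groups did not overlap in this sum, nor did the 3 Panc89 groups. As a share of all TPM in a library, the mean ran from 0.241% in Panc1 Holoclone to 1.23% in Panc89 Paraclone cells.

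S100A6, also called calcyclin, was the most abundant of the 10 in all 6 groups, with 71.7% to 77.8% of the sum in the Panc1 groups and 45.5% to 53.8% in the Panc89 groups. The second place differed between the lines. S100A10 held it in Panc1, with 12.2% of the sum in parental, 24.0% in Holoclone and 17.6% in Paraclone cells. S100P held it in Panc89, with 31.7%, 21.5% and 21.6%, while it gave 0.667%, 0.275% and 0.651% of the sum in Panc1.

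**Figure D2:**
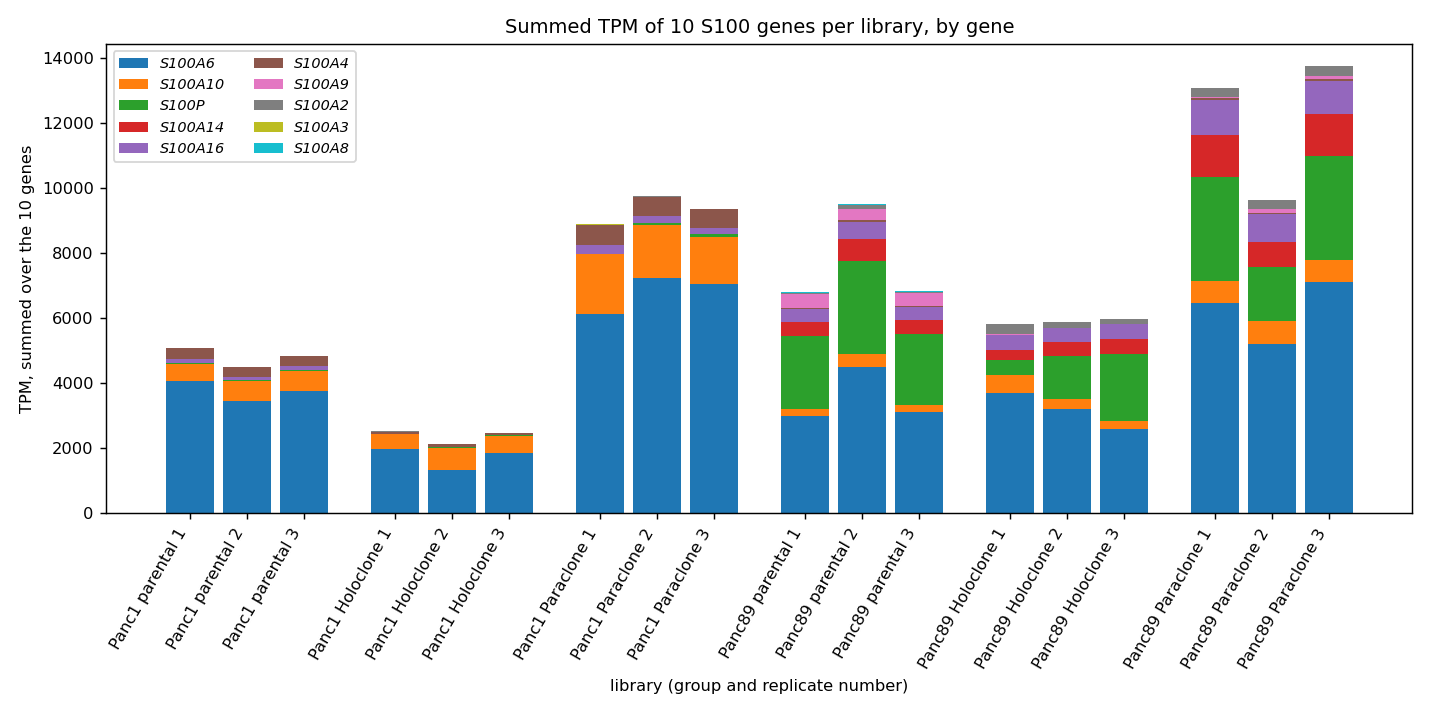
TPM of the 10 S100 genes stacked for each of the 18 libraries, with libraries on the x axis by group and replicate number and the summed TPM on the y axis. The sum is lowest in the Panc1 Holoclone libraries (2138 to 2521 TPM) and highest in Panc89 Paraclone replicate 3, and S100P (green) forms a thick band in Panc89 and a thin one in Panc1.

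The comparison of the parental lines asked how S100 expression differs between the epithelial and the mesenchymal-like model. Leaving out S100A8, S100A9 and S100A14, whose difference the filter decided, 6 of the other 7 genes were called, 3 higher and 3 lower in Panc89. Among all tested genes, 66.0% were called in this comparison, 27.5% higher and 38.5% lower. The 6 called genes also had groups that did not overlap, which held for 73.3% of all genes. The median log2 fold change was -0.11 over the 7 genes and -0.18 over all genes. Scaling by the median of ratios moved the latter to 0.02 and the share of calls that were higher from 41.6% to 51.8%, and the calls among the 7 stayed at 3 higher and 3 lower.

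Among the epithelium-associated members, S100P, which binds ezrin and RAGE, was higher in Panc89 than in Panc1 in all 3 kinds of cells. It was at 2246, 2870.5 and 2187 TPM in the parental Panc89 libraries and at 45.8, 3.48 and 49.6 TPM in those of Panc1. The 2 groups were far apart, although replicate 2 of parental Panc1 fell well below its other replicates. The log2 fold change was 6.78 ± 0.85 in parental cells (adjusted p = 3.57e-06), 7.29 ± 0.85 between the Holoclones and 5.73 ± 0.85 between the Paraclones. On the TPM scale, the mean in Panc89 was 73.8 times that in Panc1 for parental cells.

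S100A14, a membrane-associated S100 of epithelia, was listed below 0.4 TPM in all Panc1 libraries. In Panc89 it was at 451, 667 and 442 TPM in parental, 334, 432 and 473 TPM in Holoclone and 1299, 762 and 1278 TPM in Paraclone cells. No Panc1 library came near any Panc89 library. No test between the lines is given, since the gene passed the filter through Panc89 only.

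S100A2, known from squamous and ductal epithelium, was at 49.8, 116 and 54.2 TPM in parental Panc89 and at 6.43, 7.72 and 5.09 TPM in parental Panc1. The lines did not overlap. Its log2 fold change was 3.23 ± 0.32 in parental cells (adjusted p = 2.72e-07), 4.75 ± 0.32 between the Holoclones and 6.03 ± 0.32 between the Paraclones.

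S100A16 was also higher in Panc89, by 1.91 ± 0.15 in parental cells (adjusted p = 2.11e-08) and 2.18 ± 0.15 between the Paraclones.

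S100A4 and S100A3 were higher in Panc1. S100A4, also known as metastasin, binds non-muscle myosin IIA and is a marker of mesenchymal cells. It was at 323, 297 and 319 TPM in parental Panc1 and at 34.6, 58.8 and 34.9 TPM in parental Panc89. Each Panc1 value was above each Panc89 value, and the log2 fold change was -2.89 ± 0.23 (adjusted p = 1.84e-08), -3.45 ± 0.23 between Holoclones and -3.89 ± 0.23 between Paraclones. S100A3, a zinc-binding S100 known from the hair cuticle, was at 10.9, 8.18 and 8.76 TPM in parental Panc1 and 0.727, 1.06 and 0.458 TPM in parental Panc89, with a log2 fold change of -2.56 ± 0.27 (adjusted p = 4.63e-07). It was also lower in Panc89 between the Holoclones (-2.16 ± 0.27) and between the Paraclones (-2.21 ± 0.27).

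S100A6 was the member not called between the parental lines, at 4051, 3459.8 and 3744 TPM in Panc1 and 2992, 4485 and 3105 TPM in Panc89. The groups overlapped, and the log2 fold change was -0.11 ± 0.19 (adjusted p = 0.621), with a sign that turned under both other scalings. S100A10, known as p11, which joins annexin A2 at the membrane and lacks calcium binding, was lower in Panc89. Its values were 525, 619.9 and 614 TPM in parental Panc1 and 201, 399.9 and 215 TPM in parental Panc89, without overlap (log2 fold change -1.17 ± 0.26, adjusted p = 0.00105).

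**Figure D3:**
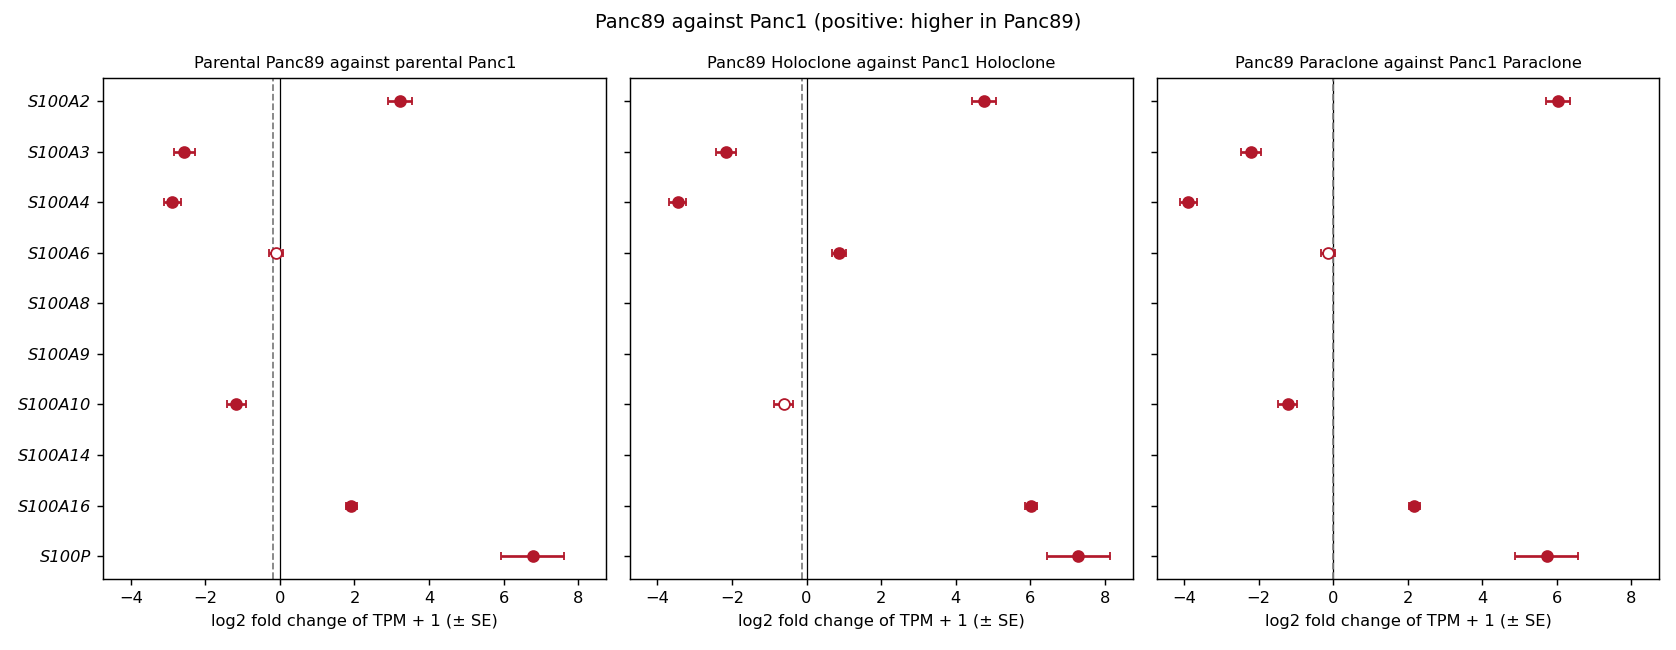
Log2 fold change of TPM + 1 (x axis) of Panc89 against Panc1 for each S100 gene, with bars for ± 1 SE, filled points for an adjusted p under 0.05 and a dashed line at the median of all tested genes; S100A8, S100A9 and S100A14, which reached 1 TPM in Panc89 only, are not drawn. S100A2, S100A16 and S100P lie to the right and S100A3 and S100A4 to the left in all 3 panels.

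Between the 2 Holoclones, 6 of the same 7 genes were called, 4 higher and 2 lower in Panc89, where 65.8% of all genes were called, 29.3% higher and 36.4% lower. The groups of 6 did not overlap, against 69.0% of all genes. S100A16 stood out by size, with a log2 fold change of 6.02 ± 0.15 (adjusted p = 2.36e-14), or 76.3 times the TPM. S100A6 was also higher in the Panc89 Holoclone (0.88 ± 0.19, adjusted p = 0.000672), while S100A10 was not called (-0.61 ± 0.26, adjusted p = 0.0525). Between the 2 Paraclones, 6 of the 7 were called, 3 higher and 3 lower in Panc89, where 60.7% of all genes were called, 30.2% higher and 30.4% lower. S100A6 was again the exception (-0.13 ± 0.19, adjusted p = 0.571). The groups of 6 genes did not overlap, against 64.0% of all genes.

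The comparison of Holoclone with Paraclone cells within a line asked how S100 expression differs between clones of unlike stem cell potential. All called S100 genes were lower in Holoclone cells, in both lines. In Panc1, 6 of 10 were lower and 0 higher, where 9.97% of all tested genes were lower, 27.4% higher and 37.3% called. S100A8, S100A9 and S100A14 reached 1 TPM in no Panc1 library, so the Panc1 count rests on the other genes. In Panc89, 7 of 10 were lower and 0 higher, where 13.3% of all genes were lower, 22.4% higher and 35.7% called. The groups did not overlap for 6 of the genes in Panc1 and 8 in Panc89, against 51.3% and 40.8% of all genes. The Panc1 count is near that share and is not the same set as the called genes. It includes S100A2, which was higher in Holoclone cells and not called, and leaves out S100A3, which was called lower but overlapped. S100A4, S100A6, S100A10 and S100A16 were called lower in both lines.

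The direction did not rest on the scaling. The median over the 10 genes was -1.15 in Panc1 and -1.09 in Panc89, against 0.19 and 0.09 over all genes. With upper quartile scaling these became -1.38 and -1.20 against 0.01 and 0.01, with 6 and 8 S100 genes lower and 0 higher. That scaling moved the share of calls that were higher over all genes from 73.3% to 51.3% in Panc1, and in Panc89 it went from 62.8% to 52.5%. The share of all genes called lower became 15.6% and 17.3%.

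S100A16, a widely expressed S100 with weak calcium binding, differed most between the Panc1 clones. It was at 5.07, 5.74 and 6.09 TPM in Panc1 Holoclone and at 269, 215 and 179 TPM in Panc1 Paraclone cells. In Panc89 the Holoclone libraries were at 441, 405 and 444 TPM and the Paraclone libraries at 1080.1, 859.9 and 1040.3 TPM. The groups did not overlap in either line, and the fall to single-digit TPM occurred in Panc1 only. The log2 fold change of Holoclone against Paraclone cells was -5.05 ± 0.15 in Panc1 (adjusted p = 2.5e-12) and -1.20 ± 0.15 in Panc89 (adjusted p = 1.87e-05). These 2 changes differed by 3.85 ± 0.22 (adjusted p = 3.93e-09).

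S100A14, the neighbor of S100A16 on the same strand, could be compared in Panc89, where it was lower in Holoclone cells by -1.40 ± 0.21 on the log2 scale (adjusted p = 7.39e-05). The values given above for the 2 Panc89 clones did not overlap. In Panc1 it stayed between 0.0585 and 0.394 TPM in both clones.

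S100A4 was at 64.8, 94.0 and 69.1 TPM in Panc1 Holoclone and at 608, 592 and 577 TPM in Panc1 Paraclone cells. In Panc89 the corresponding values were 8.89, 5.73 and 4.09 TPM and 33.9, 45.1 and 38.5 TPM. Holoclone cells had less S100A4 than Paraclone cells in each line without overlap, so that the order over the 4 clones ran from Panc89 Holoclone through Panc89 Paraclone and Panc1 Holoclone to Panc1 Paraclone. The log2 fold changes were -2.97 ± 0.23 in Panc1 (adjusted p = 8.83e-08) and -2.52 ± 0.23 in Panc89 (adjusted p = 5.67e-07), and their difference was 0.45 ± 0.32 (adjusted p = 0.308). MYH9, which encodes its myosin partner, changed with opposite signs in the lines, -0.95 ± 0.14 in Panc1 (adjusted p = 7.18e-05) and 0.52 ± 0.14 in Panc89 (adjusted p = 0.00837).

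S100A6 was at 1979.8, 1329.6 and 1844 TPM in Panc1 Holoclone and at 6128, 7245 and 7040.1 TPM in Panc1 Paraclone cells. In Panc89 it was at 3700.0, 3197 and 2585 TPM in Holoclone and at 6456, 5200.3 and 7098 TPM in Paraclone cells. The 2 Paraclones overlapped and were above both Holoclones in all libraries. The log2 fold change was -2.0 ± 0.19 in Panc1 (adjusted p = 8.55e-07) and -0.99 ± 0.19 in Panc89 (adjusted p = 0.000763), a difference of 1.02 ± 0.27 (adjusted p = 0.00786). CACYBP, the calcyclin-binding protein, was not called in either line (-0.37 ± 0.30 and -0.48 ± 0.30, adjusted p = 0.375 and 0.234).

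S100A10 was at 457, 683 and 545 TPM in Panc1 Holoclone and at 1842, 1605 and 1461 TPM in Panc1 Paraclone cells. The Panc89 values were 562, 321 and 263 TPM in Holoclone and 689, 719 and 687 TPM in Paraclone cells. Both lines showed less in the Holoclone without overlap, by -1.55 ± 0.26 (adjusted p = 0.000271) and -0.94 ± 0.26 (adjusted p = 0.0109). The Panc89 call was lost when the compared groups were fitted alone (adjusted p = 0.0685) or without Holoclone replicate 3 (-0.72, adjusted p = 0.0613). ANXA2, its partner in the plasminogen-binding complex, was also lower in Holoclone cells but by less, -0.46 ± 0.12 in Panc1 (adjusted p = 0.00653) and -0.33 ± 0.12 in Panc89 (adjusted p = 0.0419). The ratio of S100A10 to ANXA2 TPM therefore had medians of 0.271 in Holoclone and 0.587 in Paraclone cells of Panc1. These groups did not overlap (0.258 to 0.316 against 0.539 to 0.677). In Panc89 the medians were 0.339 and 0.565, and the groups overlapped (0.28 to 0.498 against 0.49 to 0.614).

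S100P was at 4.22, 10.4 and 4.25 TPM in Panc1 Holoclone and at 14.3, 77.9 and 92.9 TPM in Panc1 Paraclone cells. These groups did not overlap but the Paraclone values were widely spread, and the log2 fold change of -2.83 ± 0.85 (adjusted p = 0.0152) lost its call when any of 4 libraries was left out (adjusted p = 0.0506 to 0.0701; Holoclone replicates 1 and 3, Paraclone replicates 2 and 3). In Panc89 the values were 435, 1329.5 and 2044 TPM in Holoclone and 3194, 1648 and 3198 TPM in Paraclone cells, which overlapped (-1.28 ± 0.85, adjusted p = 0.268). EZR, which encodes ezrin, was lower in the Panc89 Holoclone than in its Paraclone (-1.31 ± 0.23, adjusted p = 0.000377) and not called in Panc1 (-0.50 ± 0.23, adjusted p = 0.103).

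S100A2 was not called between the clones of either line, at 0.74 ± 0.32 in Panc1 (adjusted p = 0.0829) and -0.53 ± 0.32 in Panc89 (adjusted p = 0.22). The Panc1 libraries held 5.70, 6.37 and 6.38 TPM in Holoclone and 4.80, 3.52 and 1.96 TPM in Paraclone cells. The Panc89 libraries held 307, 163 and 139.9 TPM in Holoclone and 259, 284 and 290.4 TPM in Paraclone cells. Holoclone exceeded Paraclone in all Panc1 libraries, and the Panc89 groups overlapped. The difference between the 2 changes passed the threshold narrowly (-1.28 ± 0.45, adjusted p = 0.0396) and lost it under 12 alternatives, among them 10 of the 12 that left out a library (adjusted p = 0.055 to 0.104). S100A3 was called lower in the Panc1 Holoclone (-0.74 ± 0.27, adjusted p = 0.039) although its libraries overlapped, at 5.13, 8.23 and 5.68 TPM against 17.7, 10.4 and 7.24 TPM. Without Paraclone replicate 1 the value was -0.42 (adjusted p = 0.199). In Panc89, S100A3 was at 0.251, 0.70 and 1.01 TPM in Holoclone and at 1.58, 2.00 and 1.30 TPM in Paraclone cells. The groups did not overlap at these low levels, and the change of -0.69 ± 0.27 missed the threshold (adjusted p = 0.0565) but passed it with either other scaling (adjusted p = 0.0351 and 0.0363).

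**Figure D4:**
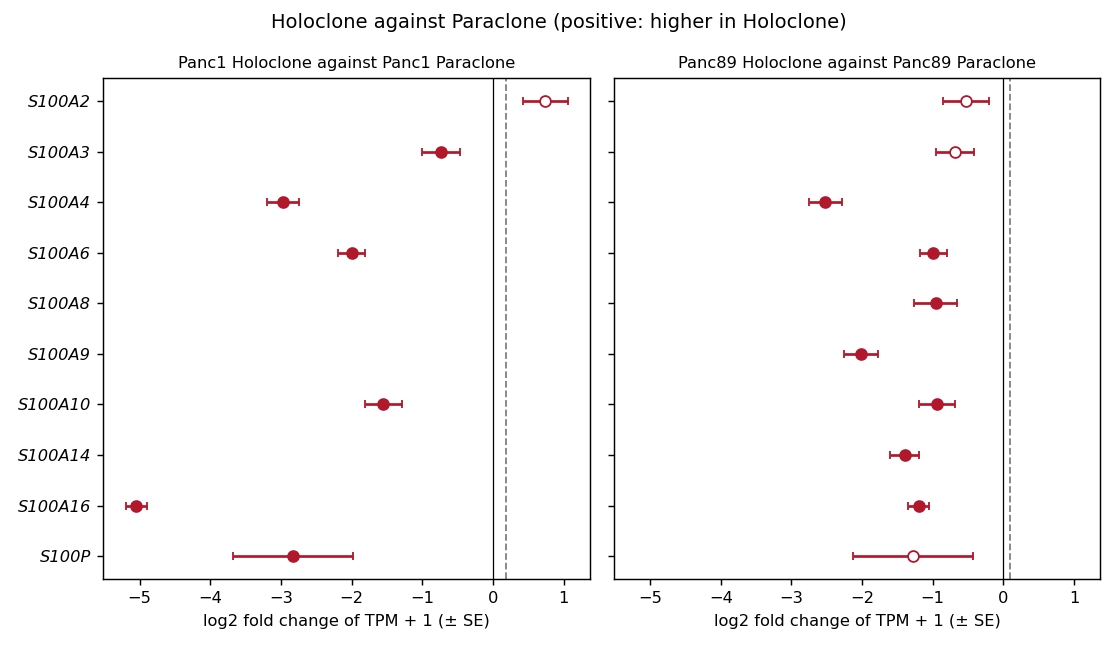
Log2 fold change of TPM + 1 (x axis) of Holoclone against Paraclone cells for each S100 gene in Panc1 (left) and Panc89 (right), with bars for ± 1 SE, filled points for an adjusted p under 0.05 and a dashed line at the median of all tested genes; genes under 1 TPM in both groups are not drawn. All filled points lie to the left of 0, and S100A16 in Panc1 lies farthest, at -5.05.

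Leaving out S100A8, S100A9 and S100A14, whose difference the filter decided, the Holoclone against Paraclone change differed between the lines for 3 of 7 genes. Of all genes, 35.1% were called, 14.8% with a positive and 20.4% with a negative difference. The difference was positive for S100A6 and S100A16 and negative for S100A2. S100A9 and S100A14 were at or near 0 in both Panc1 clones, so their difference restates the change in Panc89.

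S100A8 and S100A9, which pair as calprotectin and bind zinc and manganese outside the cell, were found in Panc89 only. S100A8 was listed at 0 in all 9 Panc1 libraries, and S100A9 at 0 in 7 of them and at 0.0612 and 0.0868 TPM in Panc1 Paraclone replicates 1 and 2. No fold between the lines is given for this pair. In parental Panc89, S100A9 was at 423, 333 and 377 TPM and S100A8 at 25.5, 23.3 and 29.9 TPM, a ratio of 12.6 to 16.6.

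S100A9 fell in both Panc89 clones relative to parental Panc89. It was at 28.4, 19.4 and 15.3 TPM in Holoclone and at 52.6, 107 and 109 TPM in Paraclone cells. The 3 groups did not overlap, in the order parental, Paraclone, Holoclone. The log2 fold change against parental cells was -4.14 ± 0.24 in Holoclone (adjusted p = 7.78e-09) and -2.13 ± 0.24 in Paraclone cells (adjusted p = 1.6e-05), and that of Holoclone against Paraclone cells was -2.01 ± 0.24 (adjusted p = 9.75e-06).

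S100A8 was at 0.261, 0 and 0.131 TPM in Panc89 Holoclone and at 0.394, 3.59 and 0.649 TPM in Panc89 Paraclone cells. All parental libraries were above all clone libraries, a difference that is not tested because those parental libraries carried the gene past the filter. The clones differed by -0.96 ± 0.30 (adjusted p = 0.02), a call lost when the Panc89 groups compared were fitted alone (adjusted p = 0.195) or without Holoclone replicate 2 (-0.88, adjusted p = 0.0707).

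Within Panc89, the summed levels of myeloid and of endothelial markers had the same order of groups as S100A9. This did not hold for each marker over both lines. ITGAM, of the myeloid list, averaged at least 1 TPM in parental Panc1 and Panc1 Holoclone cells, where S100A8 and S100A9 were at 0. The 7 myeloid markers summed to 6.03 to 10.1 TPM in parental Panc89, 0.777 to 1.02 TPM in its Holoclone and 3.06 to 5.67 TPM in its Paraclone. In parental Panc89, 2 of the 7 averaged at least 1 TPM, CD14 and CSF3R, while PTPRC averaged 0.482 TPM, LYZ 0.83 TPM and MPO was at 0 in all 3 libraries. The 4 endothelial markers summed to 55.2 to 69.1 TPM in parental Panc89, mainly PECAM1 at 60.1 ± 6.12 TPM, to 1.01 to 2.17 TPM in the Holoclone and to 2.95 to 8.90 TPM in the Paraclone, while VWF averaged 0.105 TPM and KDR 0.00135 TPM in parental cells. The 7 fibroblast markers did not follow that order, with sums of 20.6 to 27.4 TPM in parental, 10.2 to 21.8 TPM in Holoclone and 23.8 to 26.1 TPM in Paraclone cells, and COL1A1 was the 1 of 7 to average at least 1 TPM. The part of such cells in the S100A8 and S100A9 levels was not tested.

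The clones were also set against their parental cells, which share the same parental libraries within a line. In Panc1, S100A8, S100A9 and S100A14 again count among the 10 without reaching 1 TPM. In Panc1 Holoclone cells, 3 of 10 genes were called, all lower (10.9% of all genes were called, 5.87% higher and 5.06% lower): S100A16 by -4.14 ± 0.15 (adjusted p = 9.99e-11), S100A4 by -2.05 ± 0.23 (adjusted p = 2.4e-05) and S100A6 by -1.14 ± 0.19 (adjusted p = 0.000839). The parental Panc1 level of S100A16 was 126, 114 and 108 TPM, or 20.6 times the Holoclone mean. These 3 were also the genes whose groups did not overlap, against 30.3% of all genes.

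In Panc1 Paraclone cells, 4 of 10 were called, all higher, where 28.6% of all genes were called, 7.31% higher and 21.3% lower. They were S100A10 (1.48 ± 0.26, adjusted p = 0.000694), S100A4 (0.92 ± 0.23, adjusted p = 0.00702), S100A16 (0.90 ± 0.15, adjusted p = 0.000424) and S100A6 (0.86 ± 0.19, adjusted p = 0.00324). S100A10 alone exceeded a log2 change of 1. Upper quartile scaling moved the share of all calls that were higher from 25.6% to 47.4%, and 4 S100 genes were called higher and 0 lower. The groups of 5 genes did not overlap, against 42.9% of all genes. For S100A4, S100A6 and S100A16, parental Panc1 cells therefore lay between the clones, and for S100A10 the parental and Holoclone libraries overlapped (-0.08 ± 0.26, adjusted p = 0.944).

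In Panc89 Holoclone cells, 3 of the 9 genes other than S100A8 were called against parental cells, where 24.7% of all genes were called, 16.1% higher and 8.61% lower. S100A4 (-2.61 ± 0.23, adjusted p = 7.75e-07) and S100A9 were lower and S100A2 was higher (1.48 ± 0.32, adjusted p = 0.00304). The S100A2 call was lost when the groups compared were fitted alone (adjusted p = 0.0659). Upper quartile scaling moved the share of all calls that were higher from 65.2% to 51.3%, and the counts over the 9 stayed at 1 higher and 2 lower. Groups of 4 of the 9 did not overlap, against 41.2% of all genes. S100A16, the gene with the deep fall in the Panc1 Holoclone, was at 388, 543 and 399 TPM in parental Panc89, overlapping the Panc89 Holoclone (-0.03 ± 0.15, adjusted p = 0.94).

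In Panc89 Paraclone cells, 6 of the same 9 were called, 5 higher and 1 lower, where 19.4% of all genes were called, 9.37% (1508 of 16093) higher and 1612 of 16093 lower. The higher genes were S100A2 (2.01 ± 0.32, adjusted p = 0.000343), S100A10 (1.43 ± 0.26, adjusted p = 0.00118), S100A16 (1.17 ± 0.15, adjusted p = 5.94e-05), S100A14 (1.08 ± 0.21, adjusted p = 0.00143) and S100A6 (0.84 ± 0.19, adjusted p = 0.00496). The calls of S100A14 and S100A6 were lost when the groups compared were fitted alone (adjusted p = 0.0577 and 0.0724). S100A4 was not called in these cells (-0.09 ± 0.23, adjusted p = 0.85). The groups of 7 of the 9 did not overlap, against 35.8% of all genes.

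**Figure D5:**
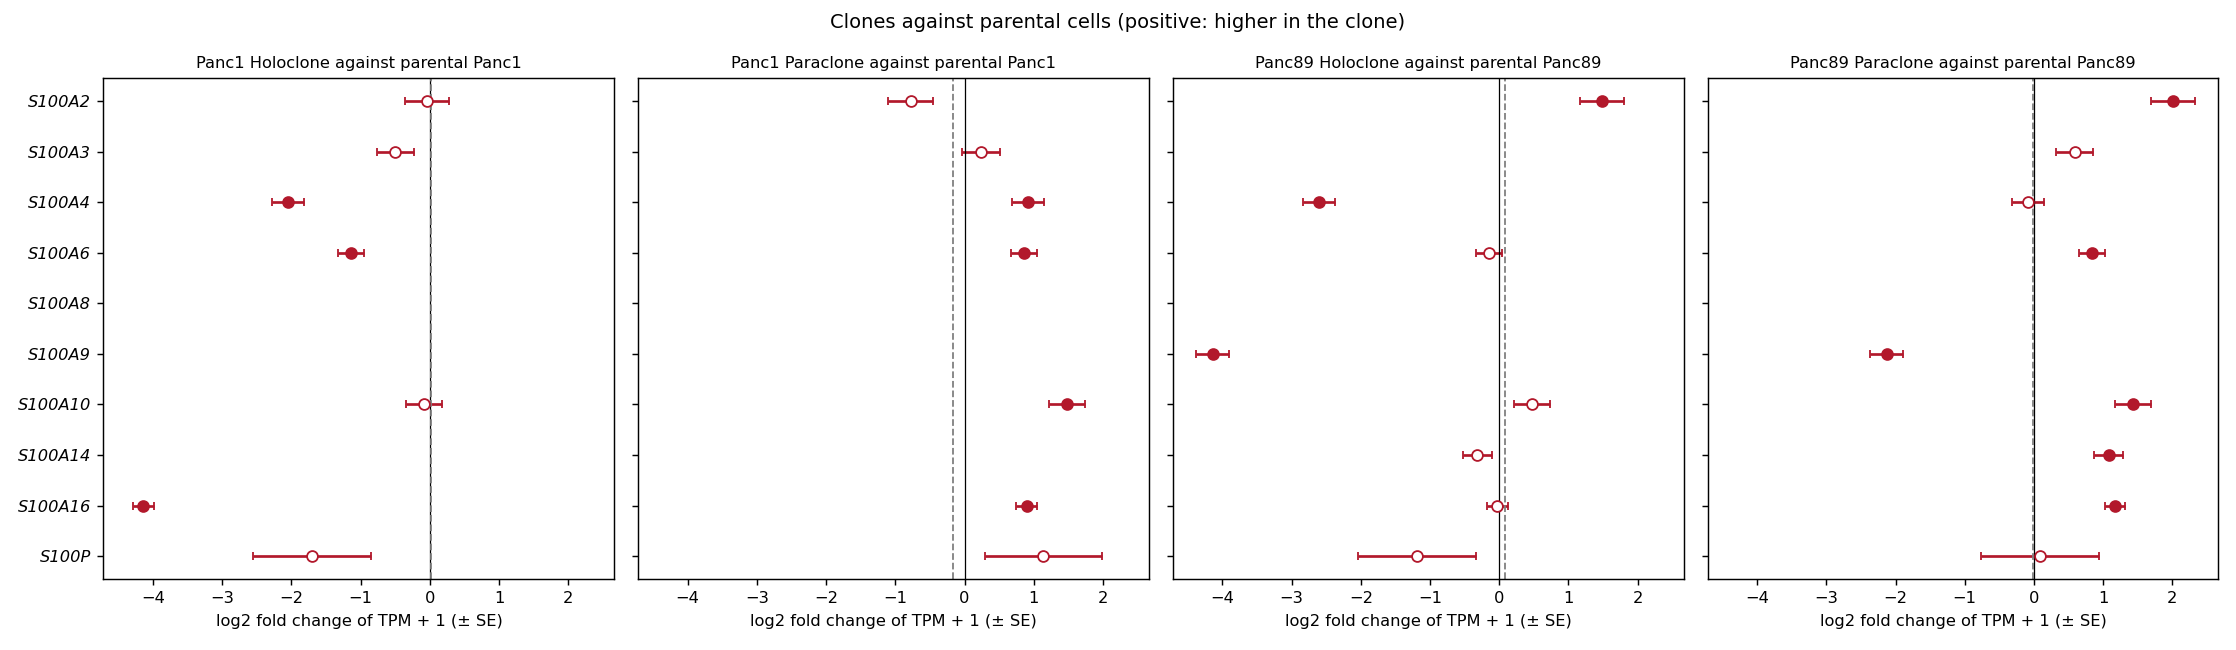
Log2 fold change of TPM + 1 (x axis) of each clone against the parental cells of its line for each S100 gene, 1 panel per clone, with bars for ± 1 SE, filled points for an adjusted p under 0.05 and a dashed line at the median of all tested genes; genes with a group mean under 0.1 TPM or under 1 TPM in both groups, and S100A8 in the Panc89 panels, are not drawn. S100A16 is far below 0 only in the Panc1 Holoclone (-4.14), and S100A9 is below 0 in both Panc89 clones.

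S100P varied more between passages than any other of the 10 genes in Panc1, and no clone was called against its parental cells for it. In Panc1 its log2 fold change was -1.70 ± 0.85 in Holoclone (adjusted p = 0.245) and 1.14 ± 0.85 in Paraclone cells (adjusted p = 0.356). Without parental replicate 2, at 3.48 TPM, the Holoclone value became -2.84 and was called (adjusted p = 0.0217), and the Paraclone value became -0.01.

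Of 11 other S100 genes on the family list, 4 were high enough to test: S100A1, S100A5, S100A11 and S100A13. The other 7, S100A7, S100A7A, S100A7L2, S100A12, S100B, S100G and S100Z, averaged under 0.4 TPM in all groups. None of the 7 listed genes that fuse an S100 domain to a longer protein, filaggrin among them, was high enough to test. Against Paraclone cells, 3 of the 4 were called lower in the Panc1 Holoclone and 2 of 4 in the Panc89 Holoclone, with 0 higher in either, where 9.97% and 13.3% of all genes were called lower. S100A13, which lies beside S100A14, was lower in both, by -1.76 ± 0.17 (adjusted p = 1e-06) and -1.42 ± 0.17 (adjusted p = 9.77e-06). S100A11, whose group means ran from 905 to 1744 TPM and which binds annexin A1, was called in Panc1 (-0.88 ± 0.20, adjusted p = 0.0024) and not in Panc89 (-0.48 ± 0.20, adjusted p = 0.0688). S100A5 was lower in the Panc89 Holoclone (-1.23 ± 0.25, adjusted p = 0.00129), at a mean of 0.279 TPM against 2.01 TPM. S100A1, lower in the Panc1 Holoclone (-1.02 ± 0.15, adjusted p = 8.81e-05), overlaps S100A13 on the opposite strand, and the strand setting of the quantification is not given in the sources used here.

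Non-S100 genes between S100A10 and S100A1 on chromosome 1 were mostly too low to test. The 4 tested were FLG-AS1, SPRR1B, SPRR2D and PGLYRP4. FLG-AS1 is an antisense transcript of the filaggrin gene and SPRR1B a cornified envelope protein gene. PGLYRP4 is a peptidoglycan recognition protein gene, named after its values were seen. FLG-AS1 in Panc1, and SPRR1B and PGLYRP4 in Panc89, passed the filter only with the libraries of the higher clone. Their differences between the clones are therefore not tested and only levels are given. FLG-AS1 was at 1.66 to 5.61 TPM in the Panc1 Holoclone and 0.296 to 0.468 TPM in its Paraclone, SPRR1B at 3.26 to 4.61 and 0.37 to 2.46 TPM in the Panc89 pair and PGLYRP4 at 0.0289 to 0.108 and 0.222 to 1.07 TPM.

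Of 19 listed partners of S100 proteins, 16 were tested. In Holoclone against Paraclone cells, 2 were higher and 5 lower in Panc1, and 6 were higher and 4 lower in Panc89. The medians were -0.12 and 0.04. The 5 lower in Panc1 include KCNK3, whose difference the filter decided. Over all genes 27.4% were higher and 9.97% lower in Panc1, and 22.4% and 13.3% in Panc89. ANXA6, a calcium-dependent membrane-binding annexin, was lower in the Panc1 Holoclone (-1.17 ± 0.24, adjusted p = 0.0012) and higher in the Panc89 Holoclone (1.45 ± 0.24, adjusted p = 0.000216). KCNK3, a potassium channel that S100A10 carries to the membrane, was at 0.101 to 0.17 TPM in the Panc1 Holoclone and at 5.11 to 7.27 TPM in its Paraclone, which carried it past the filter. PLAT, the tissue plasminogen activator, was higher in the Panc89 Holoclone (3.16 ± 0.36, adjusted p = 5.84e-06).

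Between the parental lines, 4 of the 16 partners were higher and 10 lower in Panc89. Of all genes, 66.0% were called, 27.5% higher and 38.5% lower. The filter decided the differences of PLAT, among the 4 higher, and of KCNK3. ANXA1 was higher in Panc89 (2.82 ± 0.40, adjusted p = 1.27e-05). PLAT reached 1 TPM in Panc89 only, at a median of 12.2 TPM in parental cells. ANXA6 (-3.93 ± 0.24, adjusted p = 8.07e-10), AHNAK, a scaffold bound by S100A10 (-2.42 ± 0.20, adjusted p = 2.85e-08), and ANXA2 (-1.49 ± 0.12, adjusted p = 2.43e-08) were lower, as S100A10 and S100A4 were.

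Of 9 listed receptors and co-receptors, 8 were tested. Against the Paraclone, 1 was higher and 3 lower in the Panc1 Holoclone, and 4 higher and 1 lower in the Panc89 Holoclone. The shares over all genes were 27.4% higher and 9.97% lower in Panc1, and 22.4% and 13.3% in Panc89. The 3 lower in Panc1 include TLR4, whose difference the filter decided. AGER, the RAGE gene, averaged 2.46 to 6.15 TPM over the 6 groups and was not called between the clones of either line (0.16 ± 0.22 and -0.02 ± 0.22, adjusted p = 0.623 and 0.976). TLR4, the receptor of calprotectin, averaged at most 1.30 TPM, and was listed at 0 in all 3 Panc1 Holoclone libraries and at 1.07 to 1.45 TPM in the Panc1 Paraclone, which carried it past the filter. CD14, the TLR4 co-receptor and also a myeloid marker, was lower in the Panc89 Holoclone than in its Paraclone (-1.77 ± 0.26, adjusted p = 6.47e-05), in the direction of S100A9. MCAM, a receptor for S100A8 and S100A9, was higher in the Holoclone of both lines (2.37 ± 0.26, adjusted p = 4.2e-06, and 1.55 ± 0.26, adjusted p = 0.000251).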

How the data were processed

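RNA from 18 cultures was made into stranded mRNA libraries and sequenced. Per the submitters' processing notes and the study's methods, the authors quantified transcripts with kallisto 0.46.1 on GRCh38 and deposited gene values as scaled TPM on a log2(TPM + 1) scale. TPM divide by transcript length and library total, so a few abundant genes can shift all others. These deposited log2 values were used as they stand, and TPM were obtained by reversing the scale. All 18 columns were matched to labelled samples.

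limma 3.58.1 (R 4.3.3) fitted 1 mean per group over the 18 libraries with a trended variance and a two-sided moderated test, without a replicate term. Genes at 1 TPM in at least 3 libraries were tested (16093) with Benjamini-Hochberg adjustment. The fit was tested on simulated data. Alternatives were a pseudocount of 0.1, other filters, 2 scalings, fits of the compared groups alone, replicate blocks and leaving out each library.

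All 10 S100 genes are named in all comparisons. Other genes are named if they are direct partners of a described S100 protein, or if called without overlap at a log2 change over 1 (over 2 between parental lines), at most 4 per list. A partner gene that meets this rule is not reported here. The S100 genes and all lists were chosen with earlier results of these data known. Same-numbered libraries deviated together no more than others (mean r = -0.0418 over 18 pairs, 3 over 0.1), so numbers were not taken as pairs. Promoters and motif shares come from RefSeq GRCh38.p14, and gene spans from GENCODE.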

Additional observations from a re-analysis of the deposited data

Results flagged for a closer look

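For 5 S100 genes the change from Paraclone to Holoclone cells differed between the lines by limma's test of that difference (Benjamini-Hochberg adjusted p under 0.05, as 35.1% of all tested genes did). The log2 change in Panc89 minus that in Panc1 was 3.85 for S100A16, 1.02 for S100A6, -1.28 for S100A2, -1.29 for S100A14 and -1.94 for S100A9. S100A16 and S100A6 fell in both Holoclones and by more in Panc1. S100A9 (-1.94) and S100A14 (-1.29) were also flagged. The filter decided their difference, since both were at or near 0 in Panc1, so that their values restate the change in Panc89.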

How the results depend on the processing

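The number of S100 genes called stayed within 1.5 times its reported value in 161 of 163 count alternatives. The exceptions required an absolute log2 fold change over 1, which left 4 genes for Panc89 Holoclone against Paraclone cells and 1 for Panc1 Paraclone against parental cells. Leaving out 1 library gave 4 to 6 calls for the Panc1 clones, 6 to 8 for the Panc89 clones and 9 for the parental lines, 3 of them genes whose difference the filter decided.

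Of 1366 alternatives for single genes, 1300 kept direction and side of the threshold, 32 lost a call, 14 gained one and 20 changed sign, all of the last for changes that were not called. S100A6 between the parental lines became 0.05 (upper quartile scaling) and 0.14 (median-of-ratios scaling), and the line difference of S100A3 became -0.51 with a pseudocount of 0.1. When single libraries were left out, the ranges that crossed 0 were -0.26 to 0.33 for the line difference of S100A3 and -0.08 to 0.52 for its Panc1 Paraclone against parental change. Against parental Panc1, they were -0.17 to 0.09 for S100A2 and -0.23 to 0.06 for S100A10 in the Holoclone, and -0.01 to 1.97 for S100P in the Paraclone. Against parental Panc89, they were -0.27 to 0.04 for S100A6 and -0.11 to 0.13 for S100A16 in the Holoclone, and -0.22 to 0.16 for S100A4 and -0.07 to 0.40 for S100P in the Paraclone. The cause was not tested.

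With a pseudocount of 0.1 the line difference of S100A14, which the filter decided, was under the threshold no longer met (-0.90, adjusted p = 0.154). With that pseudocount S100A3 gained a call in the Panc89 Holoclone (-1.33, adjusted p = 0.0183), as it did with upper quartile scaling (-0.74, adjusted p = 0.0351). The scalings moved the summed S100 level beyond its spread in 6 cases, the lowest being 2087 TPM in Panc1 Holoclone and the highest 10052 TPM in Panc1 Paraclone cells.

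A replicate block within each line gave 6 S100 calls for the Panc1 clones and 7 for the Panc89 clones. It gave 4 for the difference between lines, among them S100A9 and S100A14, whose difference the filter decided. The S100A2 call was lost there (adjusted p = 0.0564), and no other call of the 10 genes changed. Of 18 libraries, 2 correlated best with their own number. Depth is unknown, so the counting error of levels below 1 TPM cannot be given.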

Other observations

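S100P was lowest, within their groups, in parental Panc1 replicate 2 (3.48 TPM), Panc1 Paraclone replicate 1 (14.3 TPM), Panc89 Holoclone replicate 1 (435 TPM) and Panc89 Paraclone replicate 2 (1648 TPM). Over all tested genes, the deviations of these 4 libraries from their group means correlated with each other at 0.236 to 0.41, a description over genes, which are not independent. In the other groups S100P was lowest in Panc1 Holoclone replicate 1 (4.22 TPM) and parental Panc89 replicate 3 (2187 TPM). The deviations of these libraries correlated with those of the 4 at -0.268 to 0.0274 and at -0.05 to 0.00667. The 4 libraries were picked after the S100P values were seen.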
